A study of Mus musculus with 51 samples.

Results

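Meiotic strand exchange genes were taken as Dmc1, Psmc3ip, Mnd1, Brca2, Hsf2bp, Meiob and Spata22, which encode the meiotic recombinase, its loaders and its partners on single-stranded DNA. These 7 genes of 20698 protein-coding genes on chromosomes 1 to 19 were chosen by name and role, with no threshold on a measured value. A gene was counted as marked when a deposited peak overlapped, by at least 1 bp, the 500 bp on either side of the transcription start site (TSS, the annotated 5′ end) of one of its protein-coding transcripts in GENCODE release M21 on mm10. All 7 were present in the annotation and had a peak in at least 10 of the 20 lists.

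The nuclei came from testes of adult wild-type male C57Bl/6J mice that received no treatment. Formaldehyde-fixed nuclei with replicated DNA content and SCP3, a protein of the chromosome axis, were sorted by flow cytometry into 5 stages of the first meiotic prophase. STRA8 marked leptonema (LE) in a sort of its own, and the testis histone H1t with the level of SCP1 separated zygonema (ZY), early pachynema (EP), late pachynema (LP) and diplonema (DI). ChIP-Seq was done for H3K4me3 (EpiCypher antibody, experiments 1 and 2 at each stage, 10 lists), for H3K4me2/3 (an Abcam antibody that recognises di- and trimethylated H3K4, experiment 2, 5 lists) and for H3K9ac (Active Motif antibody, experiment 1, 5 lists). The deposited titles name this last mark H3K9ac, whereas the antibody field of these 5 samples reads H3K4me3 with the catalogue number that another sample of the series gives for H3K9ac.

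Meiotic recombination starts from programmed double-strand breaks whose ends are resected to single strands. DMC1, a meiosis-specific recombinase, coats these strands and invades the homologous chromosome. The PSMC3IP (HOP2) and MND1 proteins form a dimer that stimulates the invasion, BRCA2 loads DMC1, HSF2BP binds BRCA2, and MEIOB and SPATA22 form a complex that binds single-stranded DNA beside RPA. H3K4me3 and H3K9ac are marks of active promoters, whereas H3K4me2 spreads farther from the TSS.

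The H3K4me3 lists held between 4883 and 15699 peaks, the H3K4me2/3 lists between 17561 and 30943, and the H3K9ac lists between 516 and 16003. The lists give no read count or score, so the depth behind a peak is unknown, a peak is present or not, and its width is the remaining measure. A mark in fewer nuclei and a weaker mark per nucleus cannot be told apart in such lists. Of the genes for the sorting proteins, Sycp3 had an H3K4me3 peak in 10 of 10 libraries, Sycp1 in 8, and Stra8 and Hist1h1t (H1t) each in 2 of the 4 LE and ZY libraries and in 0 of the 6 later ones. The paper gives the H1t protein as present from mid pachynema on. The Hist1h1t calls thus ran opposite to the protein used to sort LP and DI, and the reason was not tested. Of 4 round spermatid markers (Tnp1, Prm1, Prm2 and Acrv1), 0 had an H3K4me3 peak in any library. Of 4 Leydig cell markers, 3 (Cyp17a1, Star and Hsd3b1) had none, and Insl3 had a peak in 1 later library.

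The strand exchange genes carried H3K4me3 peaks at their TSSs more often than protein-coding genes at large when all deposited peaks were counted, and by how much depended on the length of the lists. Counted over the 10 libraries, 54 of 70 gene and library pairs had a peak (77.1%, against 35.6% over all genes). In LE and ZY, 25 of 28 pairs had one (89.3%, against 39.1%), and in EP, LP and DI 29 of 42 (69.0%, against 33.3%). The members were not sampled at random, and no test was made of these shares. With lists of equal size (the 4883 widest peaks of each), 28 of 70 pairs remained (40%, against 21.7% over all genes), and the share was lower in LE and ZY (32.1%, against 17.9%) than later (45.2%, against 24.3%). The paper finds H3K4me3 at hotspots, the sites of programmed breaks, first in LE, highest in ZY and gone by EP. Lists of equal size can thus hold unlike shares of promoter peaks. The part of hotspot peaks in these values was not tested. With both libraries of a stage required, 6 genes were marked at LE (background 38.1% of all genes), 5 at ZY (32.4%), 3 at EP (24.9%), 4 at LP (25.8%) and 4 at DI (28.6%). Brca2 and Hsf2bp were marked in both libraries of all 5 stages, Psmc3ip and Meiob of 4, Dmc1 of 2, and Mnd1 and Spata22 of 1. With lists of equal size the counts were 4 at LE (16.9% of all genes), 0 at ZY (9.45%), 3 at EP (21.4%), 2 at LP (18.9%) and 1 at DI (18.9%). Taken list by list, the LE lists of experiments 1 and 2 held peaks at 6 and 7 of the genes (background 38.7% and 46.3%) and the ZY lists at 7 and 5 (36.2% and 35.3%). The LP lists each held peaks at 5 (26.4% and 39.7%), and the DI lists at 4 and 6 (28.7% and 46%).

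**Figure D1:**
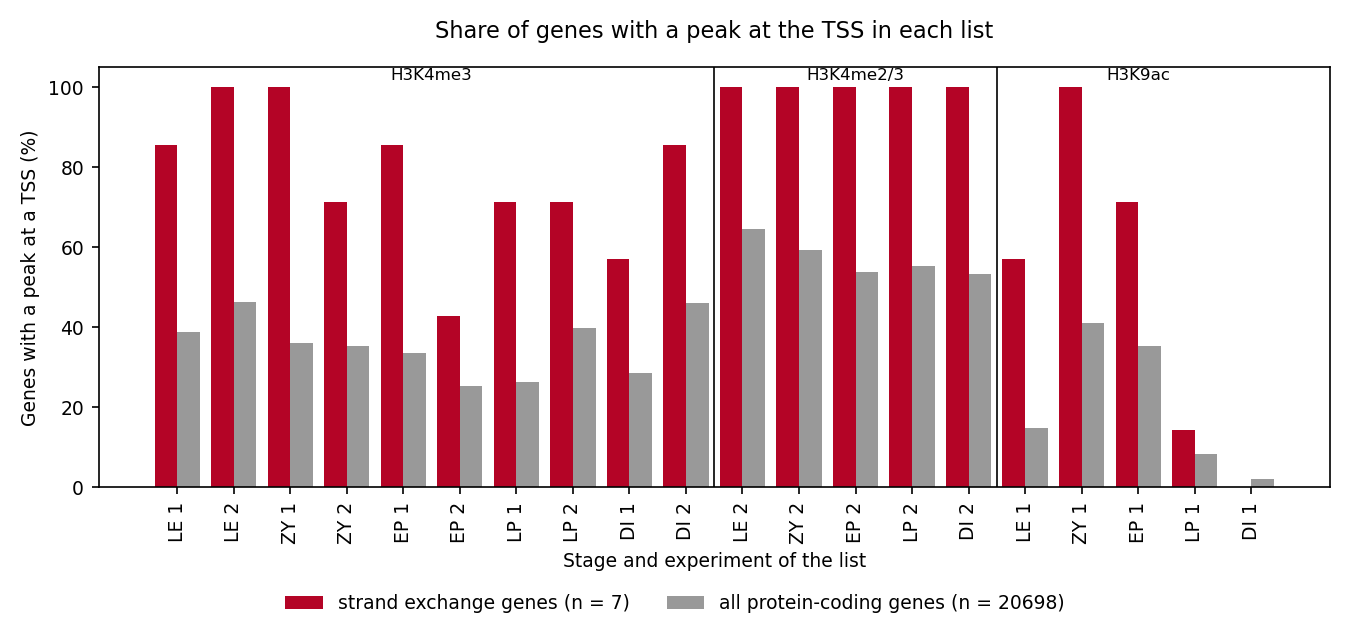
Percentage of genes with a peak within 500 bp of a protein-coding TSS in each of the 20 lists, for the 7 strand exchange genes (red bars) and for all 20698 protein-coding genes (grey bars), with stage and experiment on the horizontal axis. The red bar stands above the grey one in every list but the H3K9ac list of diplonema, where 0 of 7 genes had a peak.

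The experiments did not always give the same call. Of 35 gene and stage pairs, 22 had a peak in both experiments, 10 in 1 of them and 3 in neither. Among pairs with a peak in either experiment, 31.2% were seen in 1 experiment only, against 27.5% for all genes. The shortest H3K4me3 list, EP of experiment 2 with 4883 peaks, held peaks at 3 of the 7 genes (background 25.2%), whereas the EP list of experiment 1, with 6647 peaks, held 6 (33.6%). Where a gene had no H3K4me3 peak, the nearest peak in that library was at least 15712 bp from its TSS, so that the absences were not a matter of the window.

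**Figure D2:**
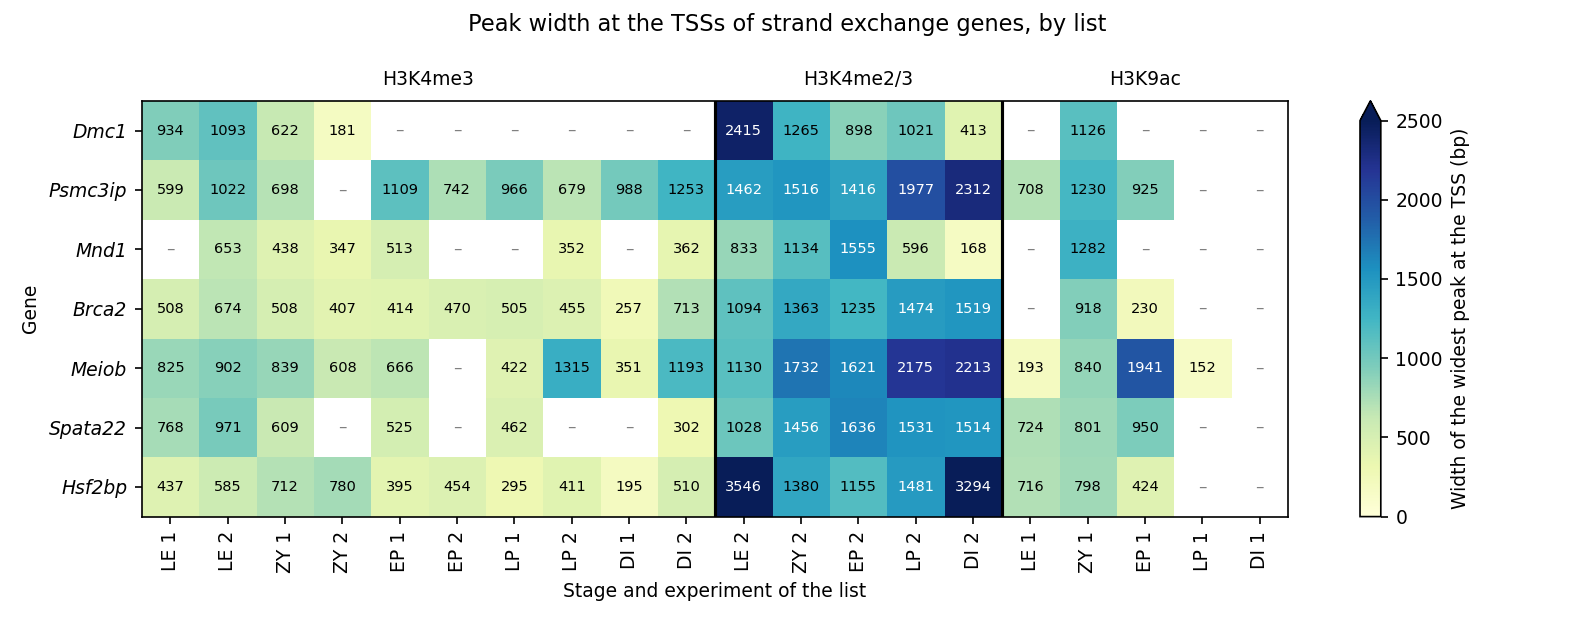
Width in bp of the widest peak at the TSSs of each strand exchange gene (rows) in each list (columns, stage and experiment), coloured from pale (narrow) to dark (wide), with a dash where no peak was called. Dmc1 has H3K4me3 peaks in the 4 leptonema and zygonema columns and in none of the 6 later ones, whereas the H3K4me2/3 block is filled for all 7 genes.

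Dmc1, the recombinase itself, had H3K4me3 at its TSS in LE and ZY and in no later library. Its protein-coding TSSs lie at 79605108 and 79605099 on the minus strand of chromosome 15. The peak was 934 bp and 1093 bp wide in the LE libraries of experiments 1 and 2, and 622 bp and 181 bp in the ZY libraries. The 6 EP, LP and DI libraries held no peak within 53013 bp of it, and the groups therefore did not overlap. With lists of equal size, 2 of the 4 early peaks were kept and the groups overlapped. The 4 peaks overlapped the first exon and reached into intron 1 in each library, and 3 of them covered the TSS, the exception being the narrow ZY peak of experiment 2. This pattern, a peak in all 4 early libraries and none of the 6 later ones, was shared by 107 of the 11204 genes with any H3K4me3 peak (0.955%), among which Dmc1 ranked 43 by mean early width.

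To compare stages on 1 scale, each width was expressed as its percentile among the peaks of its own list, with 0 for no peak. Hotspot peaks, where a list holds them, enter these percentiles. Dmc1 averaged 51.9 ± 33.5 (SD, n = 4 libraries) in LE and ZY and 0 (n = 6) later. The difference of 51.9 gave p = 0.00476 in a two-sided exact permutation test over the 210 ways of dividing 4 early from 6 later libraries, the smallest that this design can give. After Benjamini-Hochberg adjustment over 11204 genes the exact permutation p was 0.0848, and 629 genes shared this smallest p. In experiment 1 the difference was 61.9 and in experiment 2 it was 42.0. In LE the Dmc1 percentiles were 78.8 and 76.7, against a mean of 6.54 ± 15.7 (SD, n = 8) in the other libraries, a difference of 71.2 (exact permutation p = 0.0222, adjusted p = 0.214).

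No gene passed the adjusted threshold of 0.05 in either direction. In this exact permutation test of LE and ZY against the later stages, 0 of 11204 genes were called higher and 0 lower (background 0%), while at unadjusted p under 0.05 the counts were 1518 higher (13.5%) and 757 lower (6.76%). The groups did not overlap for 602 genes higher early (5.37%) and 339 lower (3.03%). This balance turned with lists of equal size, to 111 higher and 753 lower, and with widths in bp it was 614 and 123. Without ZY of experiment 2, 1076 genes were higher, and without EP of experiment 2, 523 were lower. Of the 7 strand exchange genes, 1 (Dmc1) was higher early without overlap and 0 were lower. The median difference over all genes tested was 4.38 percentile points towards LE and ZY, which Dmc1, Spata22, Hsf2bp, Meiob and Mnd1 exceeded. With lists of equal size the difference stayed above 0 for Dmc1, at 24.0, and was below 0 for the other 6 genes. Markers of other cells also had their H3K4me3 peaks in the early libraries. From 0 to 3 of the 4 Sertoli markers and from 0 to 2 of the 4 spermatogonial markers had a peak in an LE or ZY library, and 0 of either in any later library, with Amh, Zbtb16 and Gfra1 at 0 throughout. Their part in the early values of Dmc1 was not tested.

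H3K4me2/3 and H3K9ac gave different courses at Dmc1. The H3K4me2/3 peak was present at every stage and measured 2415 bp in LE, 1265 bp in ZY, 898 bp in EP, 1021 bp in LP and 413 bp in DI. The DI peak lay wholly downstream of the TSS. As percentiles of their lists these widths were 95.5, 73.1, 52.0, 46.4 and 14.1. Of the 107 genes with the early H3K4me3 pattern, 77 (72%) also had H3K4me2/3 in all 5 lists. H3K9ac was called in ZY alone, where the peak was 1126 bp wide. The ZY list was the longest for H3K9ac, with 16003 peaks against 7744 or fewer elsewhere, and held peaks at all 7 genes. There is 1 list per stage for these antibodies, so the course over the stages has no replicate check.

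The promoters are shown for Dmc1, whose H3K4me3 was limited to early libraries, for Psmc3ip, which had the widest late peaks on average, for Brca2, called in all 10 libraries, and for Spata22, whose TSS window holds other genes' TSSs. RefSeq (GRCm38.p6) gives a promoter for 6 of the 7 genes, as 250 bases before and 50 after the start, and Meiob has no entry. The windows are chr15:79605060-79605359 for Dmc1 (minus strand), chr11:101095386-101095685 for Psmc3ip (minus), chr5:150522371-150522670 for Brca2 (plus) and chr11:73329491-73329790 for Spata22 (plus). Each is written 5′ to 3′ on the strand of the gene, and capitals mark matches on either strand to the motifs described below.
Dmc1: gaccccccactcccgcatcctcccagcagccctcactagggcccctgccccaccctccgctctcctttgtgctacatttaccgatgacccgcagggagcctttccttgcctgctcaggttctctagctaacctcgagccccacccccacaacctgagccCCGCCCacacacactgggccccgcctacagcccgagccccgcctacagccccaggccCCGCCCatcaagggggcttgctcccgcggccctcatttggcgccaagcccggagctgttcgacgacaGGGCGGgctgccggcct
Psmc3ip: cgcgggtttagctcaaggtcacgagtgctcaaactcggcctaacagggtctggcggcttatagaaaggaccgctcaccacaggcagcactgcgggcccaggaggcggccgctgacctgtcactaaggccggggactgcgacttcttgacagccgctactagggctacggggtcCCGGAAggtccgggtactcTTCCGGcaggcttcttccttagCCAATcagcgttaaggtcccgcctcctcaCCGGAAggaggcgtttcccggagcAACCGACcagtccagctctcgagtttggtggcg
Brca2: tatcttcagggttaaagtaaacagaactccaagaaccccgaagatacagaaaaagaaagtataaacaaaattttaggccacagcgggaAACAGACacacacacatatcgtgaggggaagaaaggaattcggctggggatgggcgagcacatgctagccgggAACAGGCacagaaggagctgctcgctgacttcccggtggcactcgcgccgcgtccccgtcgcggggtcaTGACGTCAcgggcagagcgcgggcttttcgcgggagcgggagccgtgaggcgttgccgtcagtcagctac
Spata22: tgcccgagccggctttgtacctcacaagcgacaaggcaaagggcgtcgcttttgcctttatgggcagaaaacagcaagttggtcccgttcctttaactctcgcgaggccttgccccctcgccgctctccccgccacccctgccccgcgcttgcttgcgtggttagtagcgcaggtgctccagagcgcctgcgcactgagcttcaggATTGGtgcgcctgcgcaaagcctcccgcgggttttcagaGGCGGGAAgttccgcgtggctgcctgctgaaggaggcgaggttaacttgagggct

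All 6 windows lay above the median in CpG, with 12 (Mnd1) to 25 (Brca2 and Spata22) CpG dinucleotides against a median of 7 over 32851 promoters. Of all promoters, 62.1% had as many CpG as Mnd1 or fewer, and 83.1% as many as Brca2 and Spata22 or fewer. Motifs were searched on both strands as exact letters, namely the E-box CACGTG (present in 7.15% of all promoters), the E2F motif GGCGGGAA (2.19%), the cAMP response element TGACGTCA (1.79%), CCTCAG as in the STRA8 motif (26.8%), the CCAAT box (37.4%), the ETS core CCGGAA (14.9%), the palindromic NRF1 motif (0.971%) and the MYB motif AACNGNC (32.8%). Brca2 held a full TGACGTCA beginning 20 bases before the start and 2 matches to the MYB motif. Spata22 held GGCGGGAA 5 bases before the start and a reverse CCAAT. Psmc3ip held 3 matches to the ETS core, 1 to the CCAAT box and 1 to the MYB motif. The Hsf2bp window, which covers only the downstream of its 2 starts (described below), held a reverse CCTCAG 2 bases after the first base. The upstream Hsf2bp start was not searched. Dmc1 and Mnd1 held none of these 8 motifs. The GC box GGGCGG, added after these sequences were read, had 3 matches in Dmc1 and 2 in Mnd1, was not found in the other 4 members, and occurs in 35.7% of all promoters. These matches describe the letters only.

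Psmc3ip and Mnd1, the 2 subunits of 1 dimer, differed from each other in their calls. Psmc3ip (TSS 101095436, chromosome 11, minus strand) had an H3K4me3 peak in 9 of 10 libraries, all but ZY of experiment 2. Its widths were 599 bp and 1022 bp in LE, 698 bp in ZY of experiment 1, and from 679 bp to 1253 bp with a median of 977 bp in the 6 later libraries. Late peaks were thus wider on average, although the LE peak of experiment 2 exceeded 4 of the 6 later ones and the groups overlapped. The mean percentile was 44.3 ± 31.2 (SD, n = 4) early and 77.7 ± 12.4 (SD, n = 6) late, a difference of -33.5 (exact permutation p = 0.0190, adjusted p = 0.156). It was -31.0 in experiment 1 and -35.9 in experiment 2. Without ZY of experiment 2, the 1 library with no peak, the difference was -18.7.

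The H3K4me2/3 peak at Psmc3ip was 1462 bp, 1516 bp, 1416 bp, 1977 bp and 2312 bp from LE to DI. Its percentile stayed between 75.9 and 83.0, while the median width of the lists ranged from 836 bp to 1294 bp. H3K9ac peaks of 708 bp, 1230 bp and 925 bp were called in LE, ZY and EP.

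Mnd1 (TSS 84155786, chromosome 3, minus strand) had an H3K4me3 peak in 6 of 10 libraries, 3 early and 3 late. The widths were 653 bp in LE of experiment 2, 438 bp and 347 bp in ZY, 513 bp in EP of experiment 1, 352 bp in LP of experiment 2 and 362 bp in DI of experiment 2. Each stage but ZY was called in 1 experiment only. The peaks began past the TSS in 4 of 6 libraries and all 6 reached intron 1. The early and late mean percentiles, 24.7 ± 19.1 (SD, n = 4) and 17 ± 21.3 (SD, n = 6), differed by 7.74, less than the spread between libraries (exact permutation p = 0.638, adjusted p = 0.822), and the difference was -4.35 in experiment 1 and 19.8 in experiment 2. H3K4me2/3 measured 833 bp, 1134 bp, 1555 bp, 596 bp and 168 bp from LE to DI. The DI peak was the narrowest H3K4me2/3 peak at any of the 7 genes. H3K9ac was called in ZY alone, at 1282 bp. Of the 8989 genes with any H3K9ac peak, 1490 (16.6%) had it in ZY alone, as had Dmc1 and Mnd1.

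**Figure D3:**
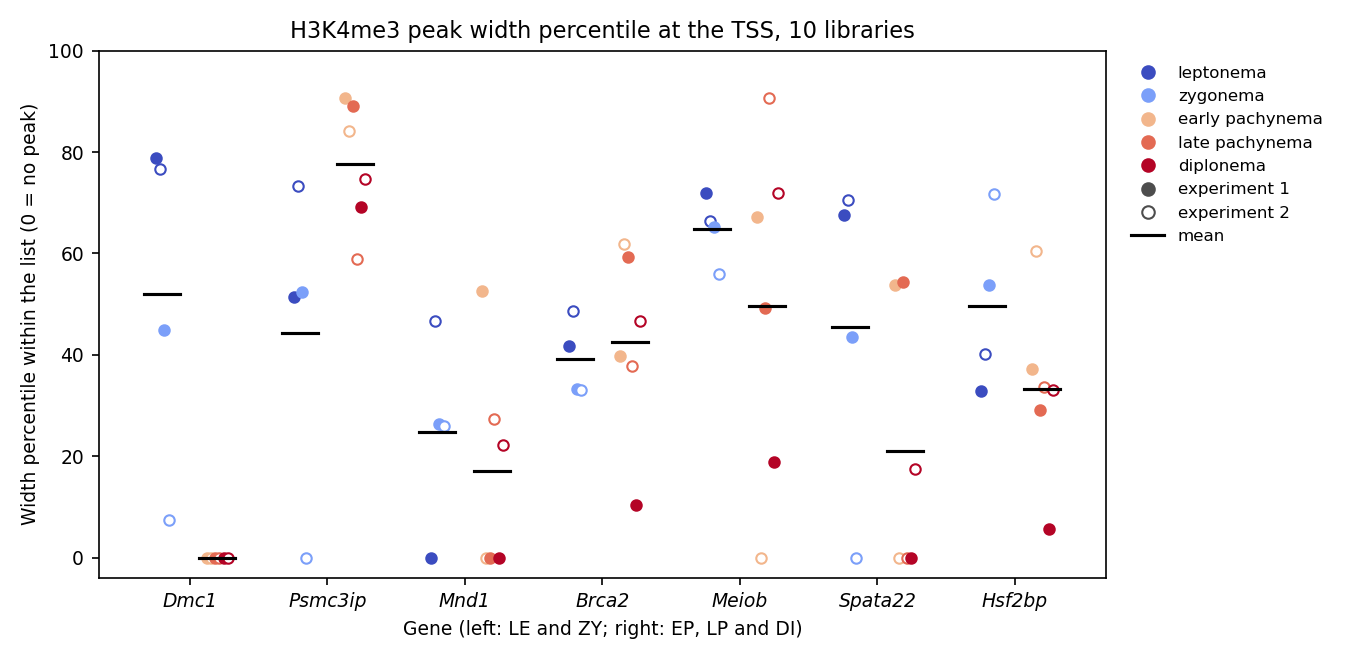
Width percentile of the H3K4me3 peak at each gene in the 10 libraries (vertical axis, 0 where no peak was called), with LE and ZY on the left and EP, LP and DI on the right of each gene, filled points for experiment 1, open points for experiment 2 and black lines for the means. For Dmc1 the 4 early points lie between 7.37 and 78.8 and the 6 later ones at 0, and for the other genes the groups overlap.

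Brca2 and Hsf2bp, the loader and its binding partner, were the members called in every H3K4me3 library with all peaks counted, as were 3725 of the 11204 genes with a peak (33.2%, or 18% of all genes). They kept 3 and 4 of their 10 calls with lists of equal size. Brca2 has 3 protein-coding TSSs within 14 bp, the first at 150522630 on the plus strand of chromosome 5. Its H3K4me3 peak measured 407 bp to 674 bp in the 4 early libraries (median 508 bp) and 257 bp to 713 bp in the 6 later ones (median 462.5 bp). The mean percentiles of 39.2 ± 7.51 (SD, n = 4) and 42.6 ± 18.6 (SD, n = 6) differed by -3.42 (exact permutation p = 0.762, adjusted p = 0.901), and the sign turned with widths in bp. Brca2 thus had the most even early values of the 7 genes on the bp scale, with an SD of 111 bp. H3K4me2/3 measured 1094 bp, 1363 bp, 1235 bp, 1474 bp and 1519 bp from LE to DI. H3K9ac was 918 bp in ZY and 230 bp in EP, where it lay downstream of the TSS.

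Hsf2bp has 2 separate starts on the minus strand of chromosome 17, 1812 bp apart. The upstream start, at 32036349, lies beside the start of Rrp1b on the other strand, at 32036100, where Rrp1b encodes a protein of ribosome biogenesis. The downstream start, at 32034537 and 32034508, has no other gene's start beside it. An H3K4me3 peak was called at the downstream start in 10 of 10 libraries and at the upstream start in 8, the exceptions being LP and DI of experiment 1. At the downstream start the widths were 361 bp and 580 bp in LE, 342 bp and 780 bp in ZY, 395 bp and 158 bp in EP, 295 bp and 236 bp in LP, and 195 bp and 475 bp in DI. The peak covered one of the downstream TSSs in 3 of 4 early libraries and in 1 of 6 later ones, the other peaks lying within the gene. Over both starts the mean percentile was 49.6 ± 17.1 (SD, n = 4) early and 33.2 ± 17.6 (SD, n = 6) late, a difference of 16.4 (exact permutation p = 0.195, adjusted p = 0.473). With the downstream start alone, a choice made after the data were seen, it was 17.9.

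With H3K4me2/3 the Hsf2bp starts lay in 1 joint peak of 3546 bp in LE and 3294 bp in DI, which also held the Rrp1b start, and in separate peaks at ZY, EP and LP. At those 3 stages the downstream peak was 1000 bp, 568 bp and 893 bp wide and the upstream peak 1380 bp, 1155 bp and 1481 bp. H3K9ac was called at both starts in LE and ZY and at the downstream start alone in EP, where it was 424 bp wide. Peaks at the upstream start cannot be assigned to Hsf2bp or to Rrp1b.

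Meiob and Spata22, the partners on single-stranded DNA, were marked in both LE libraries, as was every member but Mnd1, and differed later. Meiob (TSSs 24804289 and 24804311, chromosome 17, plus strand) had an H3K4me3 peak in 9 of 10 libraries, all but EP of experiment 2. Its widths were 825 bp and 902 bp in LE, 839 bp and 608 bp in ZY, 666 bp in EP of experiment 1, 422 bp and 1315 bp in LP, and 351 bp and 1193 bp in DI. The mean percentiles, 64.9 ± 6.56 (SD, n = 4) early and 49.7 ± 34.4 (SD, n = 6) late, differed by 15.2 (exact permutation p = 0.414, adjusted p = 0.650).

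The Meiob peak also differed in its place. Its centre lay 100.5 bp to 213.5 bp downstream of the TSS in the 4 early libraries, 47.5 bp downstream in EP of experiment 1, and upstream of the TSS, at -348.5 bp to -211 bp, in the 4 LP and DI libraries. The LP and DI peaks of experiment 1 ended 138 bp and 80 bp before the TSS, whereas those of experiment 2 covered it and reached 868 bp and 832 bp upstream. The groups of centres did not overlap. Of 4743 genes with a peak in all 4 early and in 5 or 6 of the later libraries, 142 (2.99%) had the centre farther upstream in every later library, and 415 (8.75%) farther downstream. This measure was chosen after the Meiob peaks were seen, and no test was made of it. H3K4me2/3 widths at Meiob were 1130 bp, 1732 bp, 1621 bp, 2175 bp and 2213 bp from LE to DI, and the peak centre lay 143.5 bp downstream of the TSS in LE and upstream of it in DI. H3K9ac at Meiob was called at 4 stages, more than for any other member, with widths of 193 bp, 840 bp, 1941 bp and 152 bp from LE to LP.

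**Figure D4:**
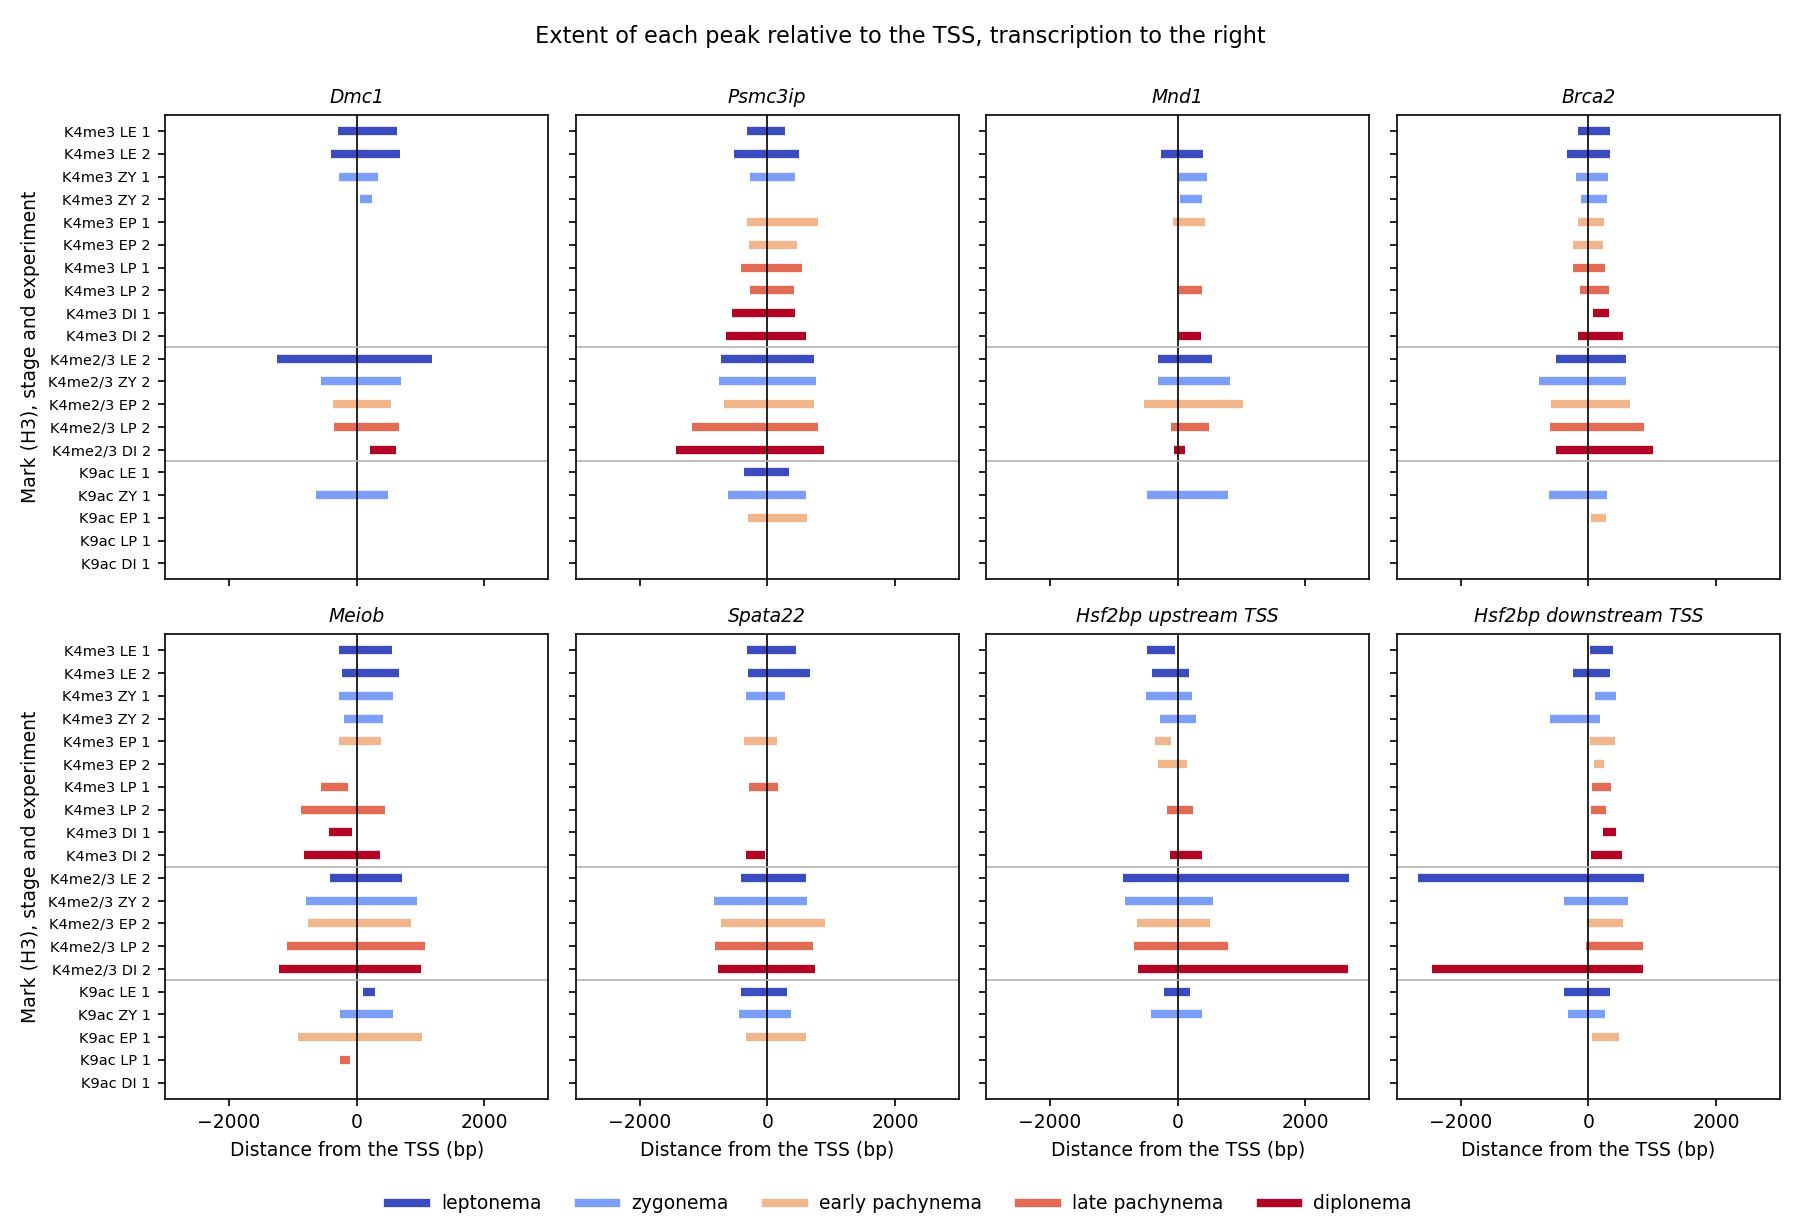
Extent of every peak relative to the TSS (distance in bp, transcription to the right) at the 8 starts of the 7 genes, 1 line per list, coloured by stage from blue (leptonema) to dark red (diplonema), with H3K4me3, H3K4me2/3 and H3K9ac from top to bottom and experiment numbers at the left. The red H3K4me3 bars of LP and DI at Meiob are centred to the left of the blue LE and ZY ones but overlap them. The H3K4me2/3 bars at the Hsf2bp starts span both in LE and DI.

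Spata22 (TSS 73329741, chromosome 11, plus strand) had an H3K4me3 peak in 6 of 10 libraries, in 3 of 4 early and 3 of 6 later ones. Its widths were 768 bp and 971 bp in LE, 609 bp in ZY of experiment 1, 525 bp in EP of experiment 1, 462 bp in LP of experiment 1 and 302 bp in DI of experiment 2. The LE peaks were the widest of the 10 libraries. The LE mean percentile of 69.1 ± 2.13 (SD, n = 2) exceeded that of the other libraries, 21.1 ± 25.3 (SD, n = 8), by 48.0 (exact permutation p = 0.0222, adjusted p = 0.214). In this comparison of LE with the other stages 0 of 11204 genes were called in either direction at an adjusted p under 0.05 (0%), 1518 were higher at an unadjusted exact permutation p under 0.05 (13.5%) and 186 lower (1.66%), while 1466 were higher without overlap (13.1%) and 117 lower (1.04%). The counts without overlap were 616 higher and 73 lower with lists of equal size. Without LE of experiment 1 the counts were 3728 and 280, and 433 were lower without LE of experiment 2, 233 without ZY of experiment 1 and 228 without ZY of experiment 2. Of the 7 members, Dmc1 and Spata22 were higher in LE without overlap. With lists of equal size the Dmc1 difference was 48.0 and still at the smallest exact permutation p, 0.0222, whereas that of Spata22 fell to 18.0 (exact permutation p = 0.467, adjusted p = 0.908) and its groups overlapped. With all peaks, the median difference over all genes was 7.89. Early against late, Spata22 had 45.5 ± 32.6 (SD, n = 4) and 20.9 ± 26.6 (SD, n = 6), a difference of 24.5 (exact permutation p = 0.233, adjusted p = 0.519).

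The window of Spata22 also holds the TSS of Aspa, an aspartoacylase gene read from the other strand 145 bp upstream, and that of the annotated gene Gm49340 at the same base. The Aspa start was inside the Spata22 peak in 14 lists, among them all 6 H3K4me3 lists with a peak, and the DI peak of experiment 2 ended 39 bp before the Spata22 TSS. These peaks cannot be assigned to 1 of the genes. H3K4me2/3 at Spata22 measured 1028 bp, 1456 bp, 1636 bp, 1531 bp and 1514 bp from LE to DI. H3K9ac was called in LE, ZY and EP, with widths of 724 bp, 801 bp and 950 bp.

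The Abcam antibody marked all 7 genes at all 5 stages, as it did 9900 of all 20698 genes (47.8%). The background in the single lists was 64.7% in LE, 59.4% in ZY, 53.7% in EP, 55.4% in LP and 53.3% in DI. From LE to DI, 2, 1, 4, 2 and 3 of the 7 genes were left with lists of equal size. The share over all genes with these shortened lists is not given here, so the loss cannot be set against genes at large. Within experiment 2, the H3K4me2/3 peak was wider than the H3K4me3 peak at every stage for 6 of 7 genes (background 68.4% of 13932 genes with either peak), a missing peak counting as 0 bp. At EP the paper lists unlike purity and starting chromatin for these antibodies, so that pair may not share material. At the other stages the paper lists the same values for both. The EP list of experiment 2 is also the shortest H3K4me3 list. The mean excess ranged from 793 ± 233 bp (SD, n = 5 stages) at Brca2 to 1623 ± 1155 bp (SD, n = 5 stages) at Hsf2bp. Mnd1 was the exception, wider at 4 stages and narrower in DI, by a difference of -194 bp, with a mean excess of 514 ± 679 bp. For the other 6 genes the exact sign-flip permutation p was 0.0625, the smallest that 5 stages allow, and for Mnd1 it was 0.188, so that the design cannot reach 0.05. With lists of equal size Brca2 kept 0 of its 5 H3K4me2/3 peaks. Each then counted as 0 bp, so its mean excess of -94 bp does not compare widths of called peaks. At the other genes the mean excess was from 133 bp (Spata22) to 1121 bp (Hsf2bp). The exact sign-flip permutation p over the 7 genes lay between 0.188 and 1.

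The H3K9ac calls ranked by stage in the same order as the length of the lists. At LE, 4 of 7 genes had a peak (background 14.8%), at ZY 7 (41.1%), at EP 5 (35.3%), at LP 1 (8.28%) and at DI 0 (1.99%). The lists held 2823, 16003, 7744, 1727 and 516 peaks in the same order. Within experiment 1, the mean difference in width between H3K9ac and H3K4me3 lay between -299 ± 669 bp (SD, n = 5 stages) at Psmc3ip and 66.2 ± 488 bp (SD, n = 5 stages) at Mnd1. The H3K9ac peak was neither wider nor narrower at all 5 stages for any of the 7 genes, where 0% and 2.03% of 9903 genes were, and the exact sign-flip permutation p lay between 0.25 and 1.

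The other genes of homologous recombination gave a wider frame. Of 29 genes, 28 had an H3K4me3 peak in some library (background 54.1% of all genes), all but Swsap1. In both libraries of a stage, 27 of 29 were marked at LE (background 38.1%), 25 at ZY (32.4%), 16 at EP (24.9%), 14 at LP (25.8%) and 20 at DI (28.6%). After adjustment over 11204 genes 0 of 28 were called in either direction, 1 (Rad51b) was higher early without overlap (background 5.37%) and 1 (Swi5) lower (3.03%), and the median difference was 14.2 percentile points against 4.38 over all genes.

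Rad51b, a gene of homologous recombination, shared with Dmc1 the presence in all 4 early libraries and absence from the 6 later ones, at 1242 bp, 1941 bp, 556 bp and 150 bp. Brca1, a partner of BRCA2 through PALB2, averaged 74.3 early and 11.1 late (exact permutation p = 0.00952, adjusted p = 0.113). In the other direction, Swi5, a recombination mediator, averaged 82.2 early and 96.2 late (exact permutation p = 0.00476, adjusted p = 0.0848), and Rad54l, a motor protein of homologous recombination, 15.6 early and 60.9 late (exact permutation p = 0.0190, adjusted p = 0.156).

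The genes whose width percentiles over the 20 lists were most like those of each member were found by Pearson's r, given as a description since the lists share antibodies and stages. They were Abtb2 for Dmc1 (r = 0.98), Psma5 and Copb2 for Psmc3ip (both 0.92), Sbk1 and Zfp532 for Mnd1 (0.91 and 0.89), Cdkal1 and Cdadc1 for Brca2 (both 0.95), Scfd1 and Dnlz for Meiob (0.94 and 0.93), Fbxl15 and Uso1 for Spata22 (0.89 and 0.88), and Ankrd31 and Eml4 for Hsf2bp (0.89 and 0.86). Between members r ranged from 0.23 (Dmc1 and Psmc3ip) to 0.61 (Dmc1 and Mnd1). The genes named above were picked for the highest r, so these values cannot be compared with theirs. An r for gene pairs at large is not given here. No member was the nearest gene of another.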

How the data were processed

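ChIP-Seq peak lists of sorted spermatocyte nuclei were used, 20 lists from 51 samples. The other 31 samples (inputs, a survey of marks and a control without antibody) were not analysed here. Per the labels and the methods, the authors aligned reads to mm10 with BWA 0.7.12 (mem), and called broad peaks in each library with MACS2 2.1.2, against input of the same stage, as stated for H3K4me3, with which the authors list the Abcam libraries. The control used for H3K9ac is not given in the sources used here. The deposited values are the start and end of each peak, with no count or score, so depth is unknown. A list from a deeper or purer library can be longer for that reason. Among the H3K4me3 libraries, the paper gives the lowest purity for ZY of experiment 2. That library had the 181 bp peak at Dmc1 and no peak at Psmc3ip or Spata22. The part of purity in these calls was not tested.

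Python 3.11.15 with numpy 2.4.6 and scipy 1.17.1 was used here. The widest peak overlapping the 500 bp on either side of a GENCODE M21 protein-coding TSS gave the width, and its percentile in the list (0 without a peak) was the value tested. Two-sided exact permutation tests over libraries were adjusted by Benjamini-Hochberg over the 11204 genes with a peak in 1 or more H3K4me3 libraries. Antibodies were compared by exact sign-flip permutation over 5 stages. No source says that the experiments used separate animals for every library, so p-values measure the spread between these libraries. The steps were tested on simulated data. The genes, lists and tests were chosen with earlier results of these data known.

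All 7 members were named, with genes whose TSS lay in their peaks, up to 8 other recombination genes and the 2 genes most like each member. Alternatives were a window of 1000 bp or 250 bp, an overlap of 500 bp, all transcripts, calls or bp in place of percentiles, equal list sizes (the 4883 widest peaks, with 3 H3K9ac lists shorter than that), peaks wider than the list's median, other filters, a replicate block and leaving out each library. Values of 2 genes that this rule names are not reported here.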

Additional observations from a re-analysis of the deposited data

How the results depend on the processing

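No gene passed an adjusted p of 0.05 by the exact permutation test under any alternative run, in either comparison, and no strand exchange gene did. For LE against the other stages, the smallest exact permutation p possible is 0.0222 with all libraries and 0.111 without 1 LE library. Without an LE library no gene could therefore pass, and those runs say nothing about the stages. The adjusted p of Dmc1, early against late, ranged from 0.0756 to 0.418, and its difference in percentile points from 24.0 (equal list sizes) to 66.8 (without ZY replicate 2), with 27.7 for peaks wider than the median of each list and 43.0 without LE replicate 1. Windows of 1000 bp or 250 bp and the starts of all transcripts left the calls of the 7 genes as they were. The lists hold no counts, so what depth limits cannot be given.

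Counts moved when narrow peaks were dropped, and also with calls or bp in place of percentiles. With equal list sizes the count lower early rose from 339 to 753, while 8563 genes were tested in place of 11204. The reason for these moves was not tested. Genes without overlap numbered 384 higher and 218 lower early with an overlap of 500 bp, 111 and 753 with equal list sizes, 329 higher with peaks wider than the median of each list, 107 and 36 with calls in place of percentiles, and 123 lower with widths in bp. For LE against the other stages, 67 were lower with an overlap of 500 bp, 616 higher and 73 lower with equal sizes, 924 and 73 with wider peaks, 208 and 13 with calls, and 48 lower in bp. Leaving out 1 library gave 606 (without DI replicate 1) to 1076 (without ZY replicate 2) higher and 351 (without DI replicate 2) to 523 (without EP replicate 2) lower early. For LE it gave 1477 to 3728 higher (without LE replicate 1), and 118 to 433 lower (without LE replicate 2), with 280 without LE replicate 1, 233 without ZY replicate 1 and 228 without ZY replicate 2.

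Members with a peak in both H3K4me3 libraries numbered 2 at ZY and 1 each at EP, LP and DI with an overlap of 500 bp, and the same with wider peaks. With equal sizes they numbered 0 at ZY (background 9.45%), 2 at LP (18.9%) and 1 at DI (18.9%). With either library 6 were marked at EP (background 33.9%), and leaving out 1 EP library gave 3 to 6, the highest without EP replicate 2. With equal sizes H3K4me2/3 marked 2, 1, 4, 2 and 3 genes from LE to DI, and H3K9ac 3 at ZY and 3 at EP. H3K9ac marked 3 at EP and 0 at LP both with an overlap of 500 bp and with wider peaks. The share over all genes is not given here for the H3K4me2/3 and H3K9ac counts. Nor is it given for the counts with the 500 bp overlap or wider peaks. Those counts cannot be set against genes at large.

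These signs turned, some of them in runs that dropped no peak, and the cause was not tested. Early minus late, Brca2 was 13.3 with an overlap of 500 bp, 55.25 bp as a width and 0.439 without EP replicate 2 (from -9.88 without DI replicate 1). With equal sizes Mnd1 was -5.90, Meiob -22.1, Spata22 -0.24 and Hsf2bp -8.04, and with wider peaks Mnd1 was -0.84. LE minus the other stages, Hsf2bp was 0.28 with an overlap of 500 bp, 42 bp as a width, 0.391 without ZY replicate 2 (from -9.04) and 5.55 at the downstream start alone, a choice made after seeing the data. Mnd1 was -4.42 with equal sizes, -0.63 with wider peaks, -0.125 as a call and -19.3 without LE replicate 2 (to 27.5 without LE replicate 1), and Brca2 was -17.1 with equal sizes and -5.27 with wider peaks. Psmc3ip was 0.125 as a call and 6.125 bp as a width. Without 1 library it ranged from -13.4 (LE replicate 2) to 8.46 (LE replicate 1), with 1.21 without EP replicate 1, 0.29 without EP replicate 2 and 0.98 without LP replicate 1. The width difference of H3K4me2/3 from H3K4me3 at Brca2 was -94 bp with equal sizes, where 0 of its 5 H3K4me2/3 peaks were kept and each counted as 0 bp. That of H3K9ac was 38.4 bp at Dmc1, -16.2 bp at Spata22 and 5.2 bp at Hsf2bp with equal sizes, and -19.5, -3.25 and 0.26 percentile points at Meiob, Spata22 and Hsf2bp.

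With the replicate block, exact permutations within each experiment left the differences as they were and gave Dmc1 an adjusted p of 0.124 and Psmc3ip 0.216, and the counts of 602 and 339 genes without overlap do not depend on the block. Deviations of libraries with the same experiment number correlated from -0.150 to 0.259 over 10 pairs of stages, above 0.1 in 2, so that the numbers were not shown to pair the libraries.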
